A study of Mus musculus with 4 samples.

Results

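The murine Hox gene clusters were examined for peaks of MIZ-1, a transcription factor, in spleen cells sorted for the B lineage marker B220 with chromatin immunoprecipitation and sequencing (ChIP-seq). Members were the protein-coding genes of the GENCODE basic annotation of GRCm38 (mm10) whose symbol is Hoxa, Hoxb, Hoxc or Hoxd followed by a number. This rule gave 39 of 21951 protein-coding genes, with 56 transcripts: 11 in cluster A (chr6:52155590-52260880), 10 in cluster B (chr11:96194316-96368256), 9 in cluster C (chr15:102921103-103036852) and 9 in cluster D (chr2:74668310-74765142). All peaks from 2000 bp before to 1000 bp after their transcript starts, and across each cluster with 2000 bp added at both ends, were taken from the deposited lists, which gave 33 of 34209 peaks for MIZ-1WT and 68 of 78357 for MIZ-1DPOZ.

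MIZ-1WT denotes wild-type mice. MIZ-1DPOZ denotes mice in which MB1-Cre, active in the B lineage, deletes the floxed POZ domain of Miz-1, so that B lineage cells make a truncated MIZ-1 protein without it. All animals were untreated as far as the labels state, on the C57BL/6 background and, by the study's methods, 40 to 70 days old, and the number of animals behind a library is not stated. Both genotypes had 1 ChIP library, made with the antibody H-190, and 1 input library, so a difference between lists is one between 2 libraries, and how much mice of 1 genotype vary is unknown. No RNA was measured in this series, and the sort cannot be checked against B cell markers from peak lists.

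HOX proteins are homeodomain transcription factors that give segments of the body axis their identity. Their genes lie in clusters in the order of their expression along the axis, with paralog group 1 acting anteriorly and group 13 posteriorly, and a few, such as Hoxa9 and Hoxb4, also act in blood stem and progenitor cells. MIZ-1 is a zinc finger protein that activates genes at their start sites and, bound to MYC, represses some of them, and its POZ domain mediates its oligomerisation.

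The printed sequences show what the peaks lay on, all read from GRCm38 and printed 5′ to 3′ along the gene. The first set holds the MIZ-1WT promoter peaks with the E-box CACGTG, the site of MYC and its partner MAX, within 100 bp of the summit. CACGTG, which reads the same on both strands, is in capitals. The window at Hoxb4 (plus strand, chr11:96319137-96319337) spans the end of its first coding exon, that at Hoxd4 (plus strand, chr2:74727520-74727720) lies mainly in its first coding exon, and that at Hoxd13 (plus strand, chr2:74667838-74668038) lies before the gene.
Hoxb4: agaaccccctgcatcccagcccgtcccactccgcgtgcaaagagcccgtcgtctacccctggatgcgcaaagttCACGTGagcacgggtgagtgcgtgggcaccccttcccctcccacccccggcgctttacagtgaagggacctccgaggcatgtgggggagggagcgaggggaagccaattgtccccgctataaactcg
Hoxd4: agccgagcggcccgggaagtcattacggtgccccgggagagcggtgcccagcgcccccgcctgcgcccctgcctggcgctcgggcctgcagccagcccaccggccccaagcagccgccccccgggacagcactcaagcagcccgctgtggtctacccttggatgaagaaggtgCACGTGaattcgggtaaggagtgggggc
Hoxd13: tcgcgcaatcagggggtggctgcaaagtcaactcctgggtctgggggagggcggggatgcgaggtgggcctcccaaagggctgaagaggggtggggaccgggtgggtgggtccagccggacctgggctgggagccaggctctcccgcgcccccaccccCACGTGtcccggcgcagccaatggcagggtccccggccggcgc

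In Hoxb4 and Hoxd4 the E-box stands at the same place of the gene, close to the 3′ end of the first coding exon, and the last 24 bases of that exon are therefore shown for all members of paralog group 4. They come from chr6:52191178-52191201 (minus strand) for Hoxa4, chr11:96319200-96319223 for Hoxb4, chr15:103035138-103035161 for Hoxc4 and chr2:74727682-74727705 for Hoxd4 (plus strand for all but Hoxa4).
Hoxa4: tgaagaagatcCACGTGagcgccg
Hoxb4: tgcgcaaagttCACGTGagcacgg
Hoxc4: tgaaaaaaattcacgttagcacgg
Hoxd4: tgaagaaggtgCACGTGaattcgg

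Hoxa4, Hoxb4 and Hoxd4 held CACGTG there and Hoxc4 did not. None of the other 35 Hox genes had it in these 24 bases, and of 18439 other protein-coding genes with 2 or more coding exons 57 had it (0.309%). This stretch was chosen after the sequences had been seen, so the counts are a description. The MIZ-1WT list had a peak over these bases at Hoxa4, Hoxb4 and Hoxd4 and none at Hoxc4. Among all 39 Hox genes, such exon ends lay under a MIZ-1WT peak at 6 and under a MIZ-1DPOZ peak at 10. The share of other protein-coding genes with this exon end under a peak was not computed, so these counts have no background. The MIZ-1WT genes included Hoxa2, Hoxa7 and Hoxc11, which lack CACGTG there, so a peak over these bases did not go with the E-box alone. In the MIZ-1DPOZ list the bases lay under a peak at Hoxb4 and at Hoxc4, while the peaks of Hoxa4 and Hoxd4 ended short of them.

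The last set shows the range of base composition under MIZ-1DPOZ promoter peaks, with each CG in capitals, the dinucleotide in which CpG islands are rich. The pair of strongest promoter peaks lay in an intron of Hoxd3 (plus strand, chr2:74740372-74740572, 16 CG) and in the first coding exon of Hoxd9 (plus strand, chr2:74698586-74698786, 23 CG). The highest GC content of these windows, 85.1%, was in the first coding exon of Hoxa4 (minus strand, chr6:52191331-52191531, 34 CG). A window before Hoxb4 (plus strand, chr11:96316279-96316479) held no CG.
Hoxd3: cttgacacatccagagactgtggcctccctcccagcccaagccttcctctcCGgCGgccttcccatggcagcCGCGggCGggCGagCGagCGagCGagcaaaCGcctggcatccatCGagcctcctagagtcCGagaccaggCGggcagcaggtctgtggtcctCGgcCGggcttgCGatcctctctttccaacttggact
Hoxd9: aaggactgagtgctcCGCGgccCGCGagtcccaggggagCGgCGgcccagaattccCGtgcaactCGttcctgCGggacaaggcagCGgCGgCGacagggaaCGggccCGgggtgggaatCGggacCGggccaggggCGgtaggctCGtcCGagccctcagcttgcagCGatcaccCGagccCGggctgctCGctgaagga
Hoxa4: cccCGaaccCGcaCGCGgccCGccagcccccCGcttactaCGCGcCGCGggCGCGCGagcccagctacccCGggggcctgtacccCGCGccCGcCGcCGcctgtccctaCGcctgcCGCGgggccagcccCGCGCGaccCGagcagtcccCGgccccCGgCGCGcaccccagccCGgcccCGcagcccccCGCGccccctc
Hoxb4: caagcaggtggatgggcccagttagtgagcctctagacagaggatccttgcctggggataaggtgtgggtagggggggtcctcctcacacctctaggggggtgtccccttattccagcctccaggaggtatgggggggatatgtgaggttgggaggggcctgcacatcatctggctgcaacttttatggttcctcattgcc

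Promoter peaks were found at 30 of the 39 Hox genes. The MIZ-1WT list had one at 19 (48.7%, 95% Wilson interval 33.9 to 63.8), the MIZ-1DPOZ list at 27 (69.2%, 53.6 to 81.4) and both lists at 16 (41%, 27.1 to 56.6). These shares were close to those of 1950 protein-coding genes of like GC content, the 50 nearest to each Hox gene in GC content of the promoter window, where 50.1%, 71.9% and 43.9% had a peak, inside the Hox intervals. They lay above the 30.8%, 48.6% and 26.6% of all 21909 other protein-coding genes. MIZ-1WT only were 3 genes (7.69%, beside 6.15% of the genes of like GC content and 4.23% of the others), and MIZ-1DPOZ only were 11 (28.2%, beside 28.0% and 22.0%). Intervals here and below cover counting error only, and neighbouring genes are not independent. With genes chosen for like GC content of the 500 bp around the first start site instead of the whole window, 27.1%, 46.9% and 23.5% had a peak, below the Hox intervals, so which stretch was compared decides whether Hox genes stand above the genes of like GC content. With both lists held to equal numbers of peaks the order of the lists turned: 14 Hox genes had a MIZ-1DPOZ promoter peak (35.9%, beside 37.8% of the genes of like GC content), below the 19 of MIZ-1WT. MIZ-1DPOZ only were then 2 genes (5.13%, beside 11%) and MIZ-1WT only 7 (17.9%, beside 23.3%). This setting shortened the MIZ-1DPOZ list alone. With a −log10 q of 5 or more in both lists the order did not turn. Then 17 Hox genes had a MIZ-1DPOZ promoter peak (43.6%, beside 48.7%) and 4 a MIZ-1WT one (10.3%, beside 14.3%). The part of the longer list in the larger number of MIZ-1DPOZ genes was not tested. Within 500 bp to each side of a start, 10 Hox genes had a MIZ-1WT peak (25.6%, 14.6 to 41.1), 19 a MIZ-1DPOZ peak (48.7%, 33.9 to 63.8) and 8 a peak in both lists (20.5%, 10.8 to 35.5), below the 45.2%, 66.6% and 39.1% of the genes of like GC content. All other protein-coding genes had 27.5%, 44.0% and 23.7%, inside the Hox intervals.

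The 16 genes in both lists were Hoxa4, Hoxa7, Hoxa10, Hoxa11, Hoxa13, Hoxb4, Hoxb7, Hoxc4, Hoxc11, Hoxd1, Hoxd3, Hoxd4, Hoxd8, Hoxd9, Hoxd11 and Hoxd13. Hoxa2, Hoxb3 and Hoxc8 were in the MIZ-1WT list only. Of the 11 genes in the MIZ-1DPOZ list only, 10 were Hoxa5, Hoxa9, Hoxb5, Hoxb6, Hoxb9, Hoxc5, Hoxc9, Hoxc12, Hoxc13 and Hoxd10. Hoxa3, Hoxa6, Hoxb1, Hoxb2, Hoxb8, Hoxb13, Hoxc6, Hoxc10 and Hoxd12 were in neither. Paralog group 4 (4 of 4 genes), group 11 (3 of 3) and group 7 (2 of 2) had a promoter peak in both lists throughout. Over all Hox genes this share was 41%, and 43.9% over the genes of like GC content. Group 4 was complete only through Hoxc4, whose MIZ-1WT peak (−log10 q 2.19) reached the window with its summit outside it. With a −log10 q of 5 or more, only Hoxb4, Hoxd4, Hoxd9 and Hoxd11 were in both lists (10.3%, beside 10.6%). All 3 genes of group 5 were in the MIZ-1DPOZ list only, as were 28.2% of all Hox genes and 28.0% of the genes of like GC content. With equal numbers of peaks, only 2 Hox genes of any group were left in that class. Group 9 had 4 of 4 genes in the MIZ-1DPOZ list and 1, Hoxd9, in the MIZ-1WT list. By position, 4 of 8 anterior genes (paralogs 1 to 3) had a MIZ-1WT and 3 a MIZ-1DPOZ promoter peak, against 8 and 11 of 15 central genes (4 to 8) and 7 and 13 of 16 posterior genes (9 to 13). Over all Hox genes the shares were 48.7% and 69.2%, beside 50.1% and 71.9% of the genes of like GC content. These groups are small, and differences between them were not tested.

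**Figure D1:**
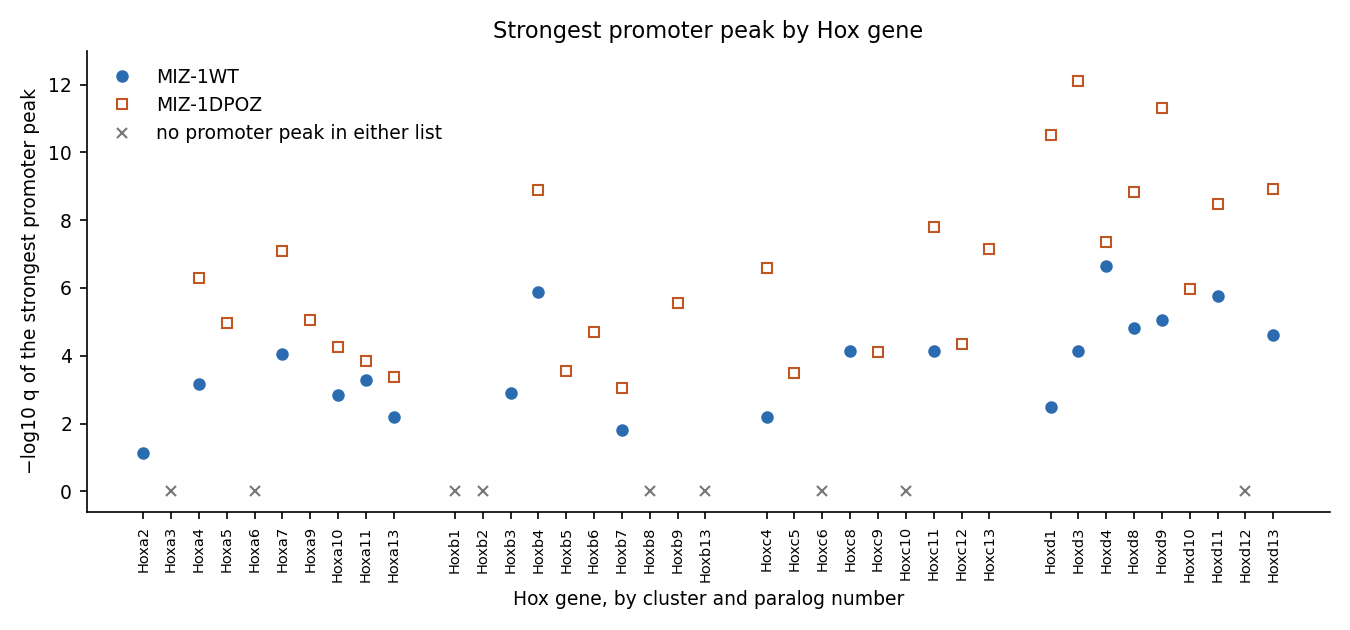
Strongest promoter peak of the Hox genes (all of the 39 but 1), by cluster and paralog number, as the deposited −log10 q (vertical axis, linear); filled circles are the MIZ-1WT list, open squares the MIZ-1DPOZ list and crosses at 0 the 9 genes without a promoter peak in either list. The highest values are those of Hoxd3 (12.1), Hoxd9 (11.3) and Hoxd1 (10.5) in the MIZ-1DPOZ list.

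Peak strength is given as the deposited −log10 q, which ranks peaks within a list, and as the summit pileup, the number of fragments over the summit, solved from the deposited scores. The MIZ-1DPOZ ChIP library was estimated to be 1.34 times deeper, so pileups of that list are larger at equal enrichment. As reads were not analysed, this came from the most frequent local background of each list divided by its smallest peak width. The ratio of the backgrounds alone was 1.57. Cluster D, whose posterior genes pattern the digits and forearm, had the strongest promoter peaks. At Hoxd3, which acts in the neck vertebrae, the MIZ-1DPOZ peak had a −log10 q of 12.1 with 18 fragments and a fold enrichment over local background of 8.09, and the MIZ-1WT peak 4.14 with 9 fragments and 5.38-fold. At Hoxd9 the values were 11.3 with 19 fragments (7.28-fold) and 5.05 with 11 fragments (5.69-fold). Hoxd1 had 10.5 with 19 fragments (6.81-fold) and 2.48 with 7 fragments (4.30-fold). These 3 MIZ-1DPOZ summits lay 853, 959 and 775 bp after a start site.

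Hoxd13, required for digit formation, had its MIZ-1DPOZ summit 208 bp before the start (−log10 q 8.91, 15 fragments) and 2 MIZ-1WT peaks, the stronger with 4.62 and 10 fragments. Hoxd11, which acts with Hoxa11 in the forearm and kidney, had 3 MIZ-1DPOZ peaks, up to 8.47 with 18 fragments, and 1 MIZ-1WT peak of 5.76 with 12 fragments. Hoxd8 had 8.82 with 17 fragments and 4.83 with 11 fragments, from peaks that did not overlap. Of the cluster D genes, Hoxd4 had the largest MIZ-1WT value, 6.64 with 12 fragments (6.68-fold), and 7.35 with 14 fragments in the MIZ-1DPOZ list. Hoxd10 had a MIZ-1DPOZ peak alone (5.96, 12 fragments), and Hoxd12 between Hoxd11 and Hoxd13 had none.

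In cluster A the strongest promoter peak was at Hoxa7, with a MIZ-1DPOZ −log10 q of 7.09 (14 fragments) and a MIZ-1WT value of 4.05 (9 fragments). Hoxa4 had 6.29 (13 fragments) and 3.18 (8 fragments). Lower MIZ-1DPOZ values were found at Hoxa10 and Hoxa11, where Hoxa10 had 4.27 (12 fragments) and 2.85 (8 fragments), and Hoxa11 had 3.85 (11 fragments) and 3.28 (8 fragments), from peaks apart from each other. Hoxa5, which acts in the lung, and Hoxa9, a driver of leukaemia when overexpressed, had MIZ-1DPOZ peaks alone, with 4.97 and 5.05 from 14 fragments each.

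In cluster B, Hoxb4, which expands blood stem cells when overexpressed, stood above the other genes with 8.88 (17 fragments, 6.31-fold) in the MIZ-1DPOZ and 5.87 (11 fragments, 6.31-fold) in the MIZ-1WT list. Hoxb9 had 5.56 (14 fragments), Hoxb6 had 4.71 (11 fragments) and Hoxb5 had 3.55 (12 fragments), each in the MIZ-1DPOZ list alone. In cluster C, Hoxc11 had 7.80 (15 fragments) and 4.14 (9 fragments), and Hoxc4 had 6.58 (15 fragments) and 2.19 (7 fragments), again from separate peaks. Hoxc13, a regulator of hair keratins, had 7.16 (14 fragments), Hoxc12 had 4.35 (12 fragments) and Hoxc9 had 4.10 (11 fragments) in the MIZ-1DPOZ list alone, and Hoxc8 had 4.14 (9 fragments) in the MIZ-1WT list alone, at its start site. The 5 genes with the weakest promoter peaks, Hoxa2, Hoxa13, Hoxb3, Hoxb7 and Hoxc5, had a largest −log10 q from 1.12 to 3.50.

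As a group, the Hox promoter peaks were of ordinary strength. The median fold enrichment was 4.88 (range 3.04 to 6.68, 21 peaks) for MIZ-1WT, beside 4.87 for 1229 promoter peaks of genes of like GC content, and 4.76 (3.17 to 8.09, 40 peaks) in the MIZ-1DPOZ list, beside 5.02 for 1955. Median pileups were 9 and 13 fragments, beside 9 and 12. The tallest Hox promoter peaks reached 12 and 19 fragments, whereas the tallest of the genes of like GC content reached 133 and 119. A −log10 q of 5 or more was reached by 4 of 21 Hox promoter peaks (19.0%, 7.67 to 40) and 20 of 40 (50.0%, 35.2 to 64.8), beside 23.5% and 55.3%. The local background under the MIZ-1DPOZ peaks had a median of 1.87 fragments at Hox and 1.52 at the genes of like GC content, and 0.977 and 0.932 under the MIZ-1WT peaks.

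The position of Hox peaks within the promoter window differed from that of the genes of like GC content. Lying downstream of the start was shared: 61.9% (MIZ-1WT) and 72.5% (MIZ-1DPOZ) of Hox promoter summits did, beside 66.2% and 68.1% for genes of like GC content. Hox summits lay farther from it: 13 of 21 MIZ-1WT promoter peaks (61.9%, 40.9 to 79.2) and 25 of 40 MIZ-1DPOZ promoter peaks (62.5%, 47.0 to 75.8) had their summit from 300 to 1000 bp after the nearest start site, beside 25.7% and 28.0% for genes of like GC content. The median summit stood 435 and 391 bp after the start, beside 101 and 139 bp. Summits in a coding exon numbered 9 of 21 (42.9%, 24.5 to 63.5) and 18 of 40 (45.0%, 30.7 to 60.2), beside 15.7% and 19.9%.

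**Figure D2:**
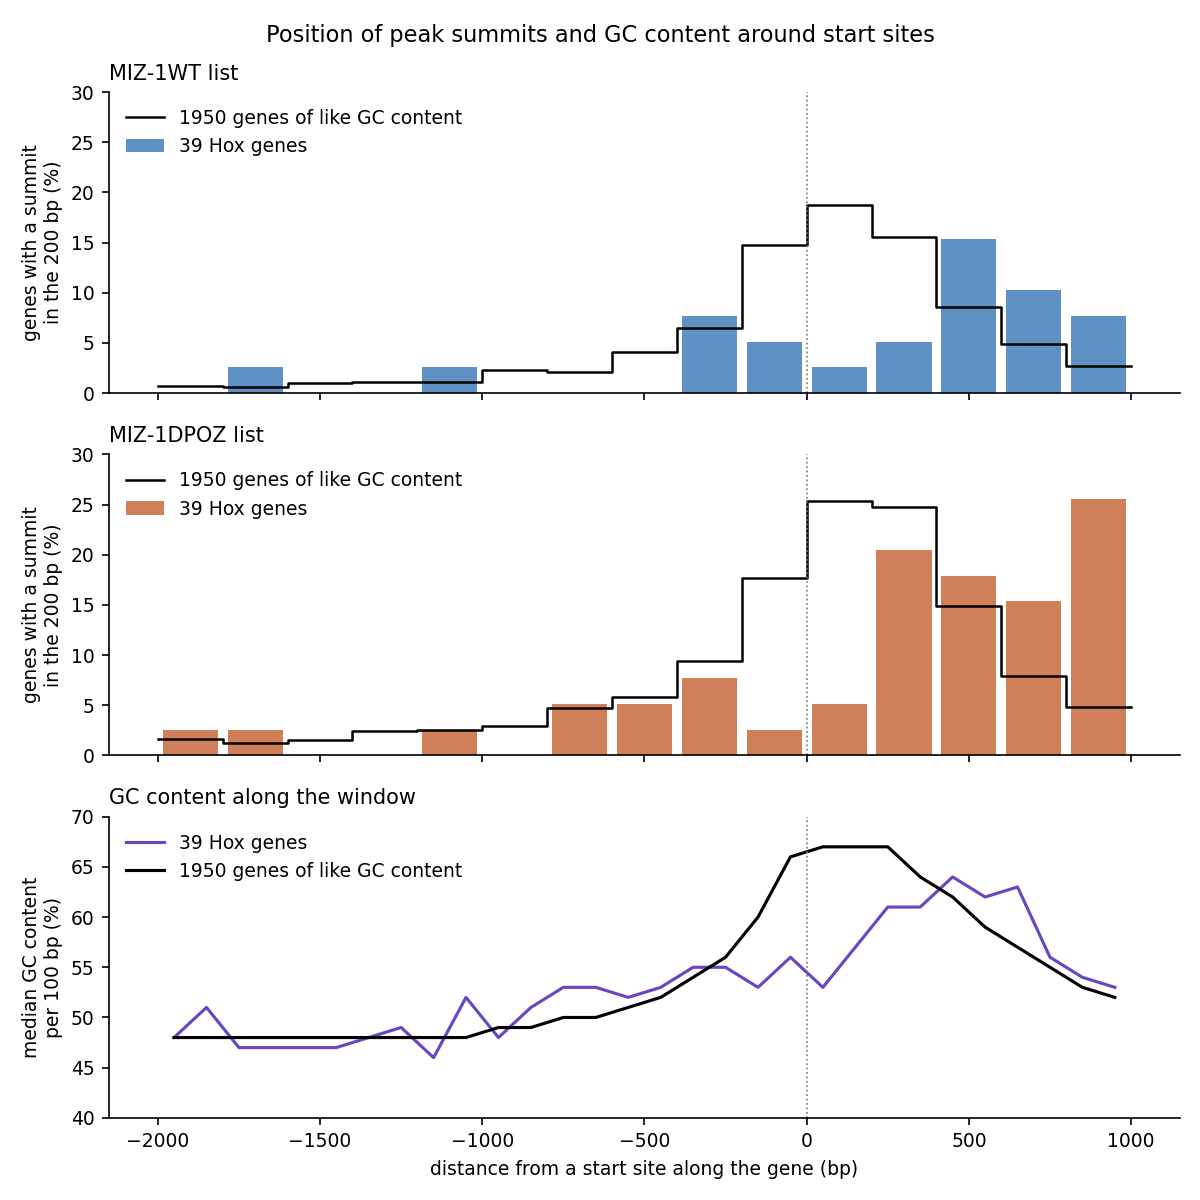
Share of genes with a peak summit in each 200 bp of distance from a start site along the gene, for the MIZ-1WT list (top) and the MIZ-1DPOZ list (middle), and median GC content per 100 bp (bottom, axis from 40% to 70%); bars or the purple line are the 39 Hox genes and black lines the 1950 genes of like GC content. The genes of like GC content have most summits and the highest GC content at the start site, while Hox genes have few summits there and more from 300 bp after it.

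Counted by gene, the start itself was sparsely occupied. A summit within 300 bp of a start site was present at 3 Hox genes in the MIZ-1WT list (7.69%, 2.65 to 20.3), namely Hoxc8, Hoxd8 and Hoxd13, and at 7 in the MIZ-1DPOZ list (17.9%, 8.98 to 32.7), namely Hoxa7, Hoxa9, Hoxb9, Hoxc4, Hoxd3, Hoxd8 and Hoxd13. The genes of like GC content had one in 35.5% and 49.9% of cases, above both intervals, and all other protein-coding genes in 21.8% and 34.5%. From 300 to 1000 bp after a start, 12 Hox genes (30.8%, 18.6 to 46.4) had a MIZ-1WT summit and 22 (56.4%, 41 to 70.7) a MIZ-1DPOZ summit. Of the genes of like GC content, 19.3% had a MIZ-1WT summit there, inside the Hox interval, and 33.2% a MIZ-1DPOZ summit, below it. The others had 11.1% and 19.4%, below both intervals. The genes with a downstream summit in both lists were Hoxa4, Hoxa7, Hoxa10, Hoxa11, Hoxa13, Hoxb4, Hoxc11, Hoxd1, Hoxd3, Hoxd4 and Hoxd9.

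**Figure D3:**
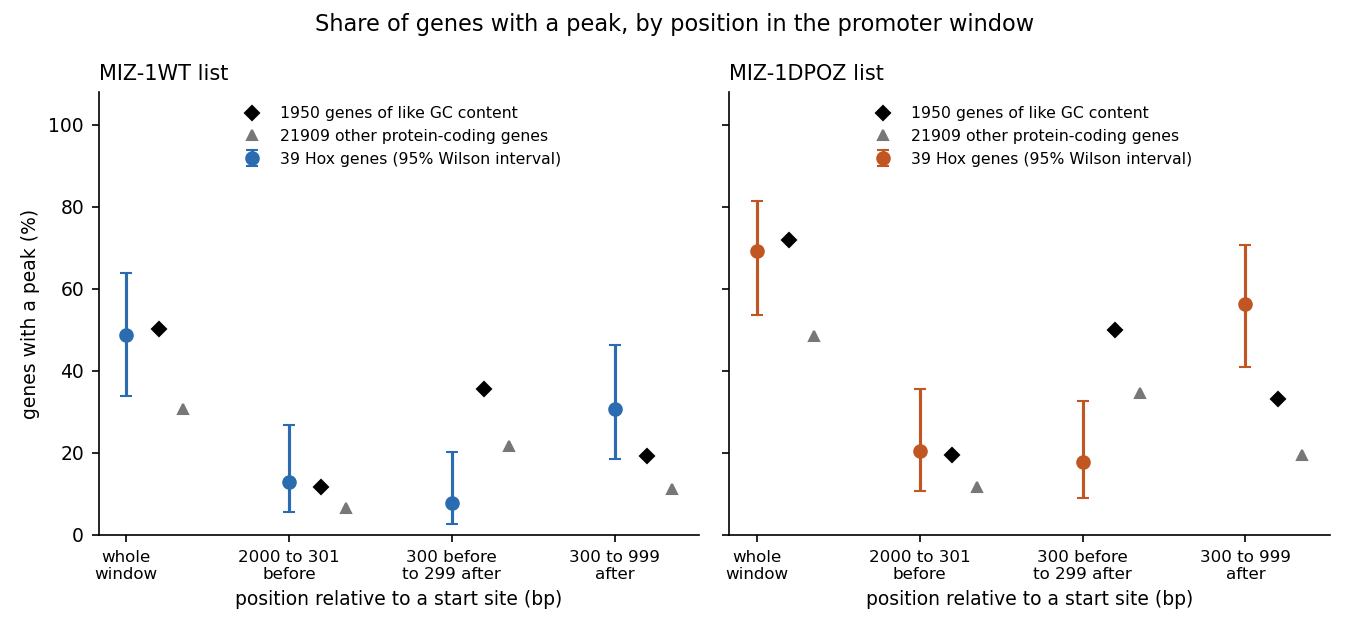
Share of genes with a peak in the whole promoter window and with a summit in each of its 3 parts, for the MIZ-1WT list (left) and the MIZ-1DPOZ list (right); circles with bars are the 39 Hox genes with 95% Wilson intervals, diamonds the 1950 genes of like GC content and triangles the 21909 other protein-coding genes. Hox genes match the diamonds over the whole window (48.7% beside 50.1%, 69.2% beside 71.9%), lie below them around the start and above them downstream. The downstream bar of the MIZ-1WT list includes its diamond.

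Base composition was distributed differently along the Hox windows, and moved with these positions. Within 300 bp of the first start site the median GC content was 56.8% for Hox genes and 64.2% for the genes of like GC content, with 53.3 and 78.3 CpG per kb. From 300 to 1000 bp after it the GC content was 56.7% and 57%, with 52.9 and 42.9 CpG per kb, and the mean share of coding bases there was 42.0% in Hox genes and 15.9% in the others. Genes were therefore also chosen for like GC content in each part, a comparison added after the data had been seen. Genes alike within 300 bp of the start had a summit there in 19.6% (MIZ-1WT) and 32.4% (MIZ-1DPOZ) of cases, above the Hox shares of 7.69% and 17.9% but inside their intervals. Genes alike from 300 to 1000 bp after the start had a summit in that stretch in 24.7% and 38.6%, inside the interval of the Hox share for the MIZ-1WT list and below it for the MIZ-1DPOZ list.

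The E-box of the printed windows was counted over all promoter peaks. Within 100 bp of the summit it was present at 3 of 21 MIZ-1WT Hox promoter peaks (14.3%, 4.98 to 34.6), beside 4.56% of those of genes of like GC content and 4.69% of those of all other protein-coding genes, and at 1 of 40 MIZ-1DPOZ Hox promoter peaks (2.50%, 0.443 to 12.9), beside 3.79% and 3.90%. The MIZ-1DPOZ peak was at Hoxb4 and covered the same E-box as the MIZ-1WT peak. Whole promoter windows held CACGTG in 22 of 39 Hox genes (56.4%), in 46.4% of the genes of like GC content and in 40.1% of the others. None of the Hox promoter peaks had over 50% of its summit window repeat-masked, beside 1.87% and 2.61% of the promoter peaks of genes of like GC content.

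Peaks of both lists coincided at Hox promoters in shares near those of other genes. Of 21 MIZ-1WT promoter peaks, 14 (66.7%, 45.4 to 82.8) overlapped a MIZ-1DPOZ peak, and of 40 MIZ-1DPOZ promoter peaks, 13 (32.5%, 20.1 to 48.0) overlapped a MIZ-1WT peak, beside 72.7% and 43.1% for genes of like GC content and 73.3% and 41.2% for all other protein-coding genes. Across the clusters there were 20 overlapping pairs, with summits 2 to 164 bp apart (median 58). They came from 20 MIZ-1WT and 19 MIZ-1DPOZ peaks, as the MIZ-1DPOZ peak at Hoxd13 was paired with both MIZ-1WT peaks there. Only sites called in both lists could form a pair. Scaled for the estimated depth, the MIZ-1DPOZ pileup was 0.610 to 1.60 times the MIZ-1WT pileup, with a median of 1.19, and the exact binomial interval included 1 in all 20 pairs, which compares libraries and not genotypes. Scaled by the ratio of the most frequent backgrounds instead, the median was 1.02. The lowest ratio, 0.610 (0.224 to 1.62), came from 11 MIZ-1WT and 9 MIZ-1DPOZ fragments before Mir196b in the Hoxa9 transcription unit, and the highest, 1.60 (0.613 to 4.63), from 7 and 15 fragments in a coding exon of Hoxb2. A change within these intervals was not detectable at this depth. The 27 MIZ-1DPOZ promoter peaks without a MIZ-1WT counterpart had 9 to 19 fragments, and the part of the deeper library in them was not tested.

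**Figure D4:**
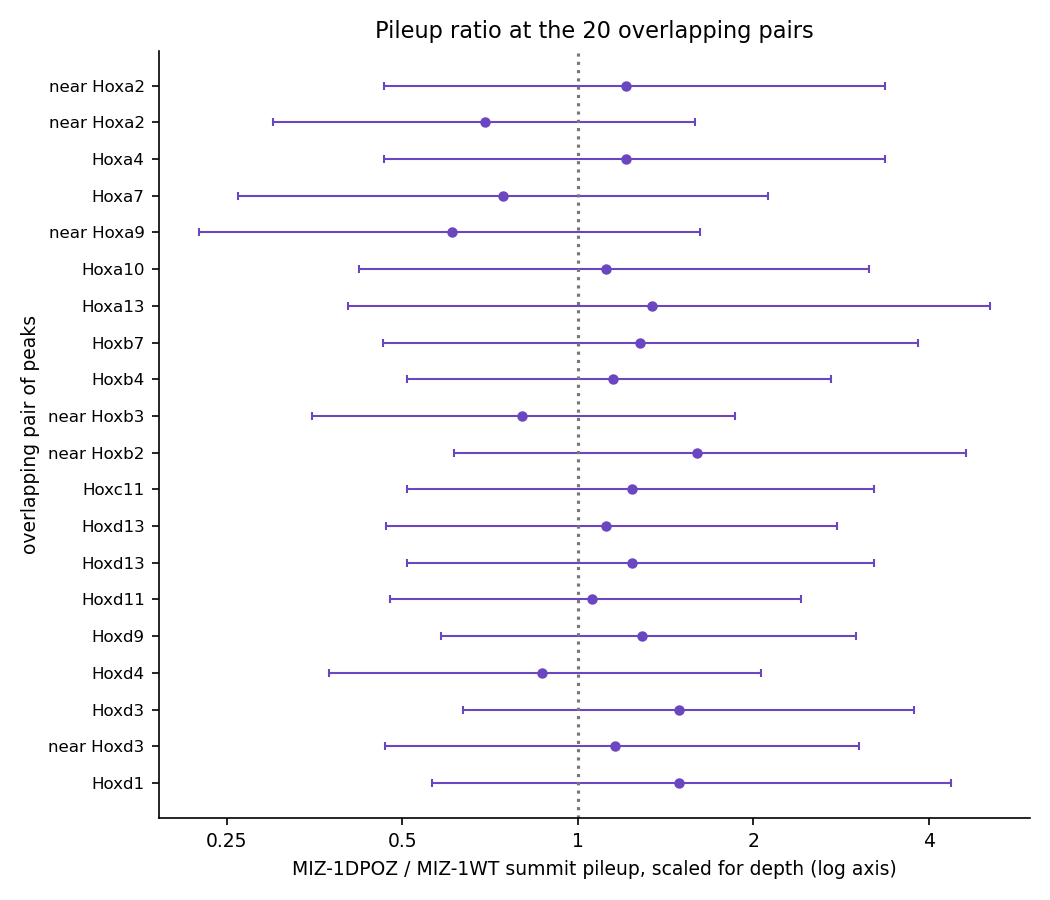
Ratio of the MIZ-1DPOZ to the MIZ-1WT summit pileup, scaled for the estimated library depth (log axis), for the 20 overlapping pairs of peaks in the Hox clusters, named by the gene whose promoter window they lie in or by the nearest Hox gene. Points are ratios, bars exact 95% binomial intervals and the dotted line equality, which every bar crosses. Both points of Hoxd13 share the same MIZ-1DPOZ peak.

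Outside promoter windows the clusters held 12 MIZ-1WT and 28 MIZ-1DPOZ peaks, some of them the strongest of their cluster. Hoxa3, which is needed for the thymus and has no promoter peak, had 3 MIZ-1DPOZ peaks in its coding exons, with −log10 q of 9.61 (chr6:52172172-52172370, 21 fragments), 7.78 (chr6:52170097-52170404, 18 fragments) and 3.94 (chr6:52170469-52170747, 13 fragments). The last of these overlapped the MIZ-1WT peak at chr6:52170613-52170785, with 7.19 and 14 fragments, the tallest of all MIZ-1WT peaks in the clusters. An intron of Hoxb3 held a pair with 7.28 (chr11:96332804-96333208, 13 fragments, MIZ-1WT) and 6.26 (chr11:96332755-96333376, 14 fragments, MIZ-1DPOZ). Over all cluster peaks, 12 of 33 MIZ-1WT summits (36.4%) and 25 of 68 MIZ-1DPOZ summits (36.8%) lay in a Hox coding exon. The share of summits in coding exons over all peaks was not computed, so these have no background.

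Along the clusters, 508 kb in all, there were 6.50 MIZ-1WT peaks per 100 kb (exact Poisson interval 4.47 to 9.13) and 13.4 MIZ-1DPOZ peaks (10.4 to 17). Bins of 1 kb elsewhere in the genome, weighted to the GC content of the clusters' bins, had 6.59 and 13.3, and bins of any composition 1.29 and 2.96, so the density was close to that of other sequence of like GC content. In bins under 25% repeat-masked the clusters had 7.28 and 15.3, above the 5.92 and 12.1 of bins of like GC content. With bins of 500 bp the clusters had 6.48 and 13.3, below 7.33 and 15.6. In the MIZ-1WT list, cluster A had 10.1 per 100 kb (5.02 to 18.0), D 8.93 (4.08 to 16.9), B 4.50 (1.94 to 8.86) and C 4.18 (1.36 to 9.74), and in the MIZ-1DPOZ list A had 16.5 (9.76 to 26.0), D 15.9 (9.07 to 25.8), C 14.2 (8.27 to 22.7) and B 9.55 (5.57 to 15.3). The intervals of all clusters overlapped within each list. The longest stretches without a peak were in cluster B, over 59.4 kb around Hoxb13 in the MIZ-1WT list and over 36.6 kb between Hoxb13 and Hoxb9 in the MIZ-1DPOZ list.

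**Figure D5:**
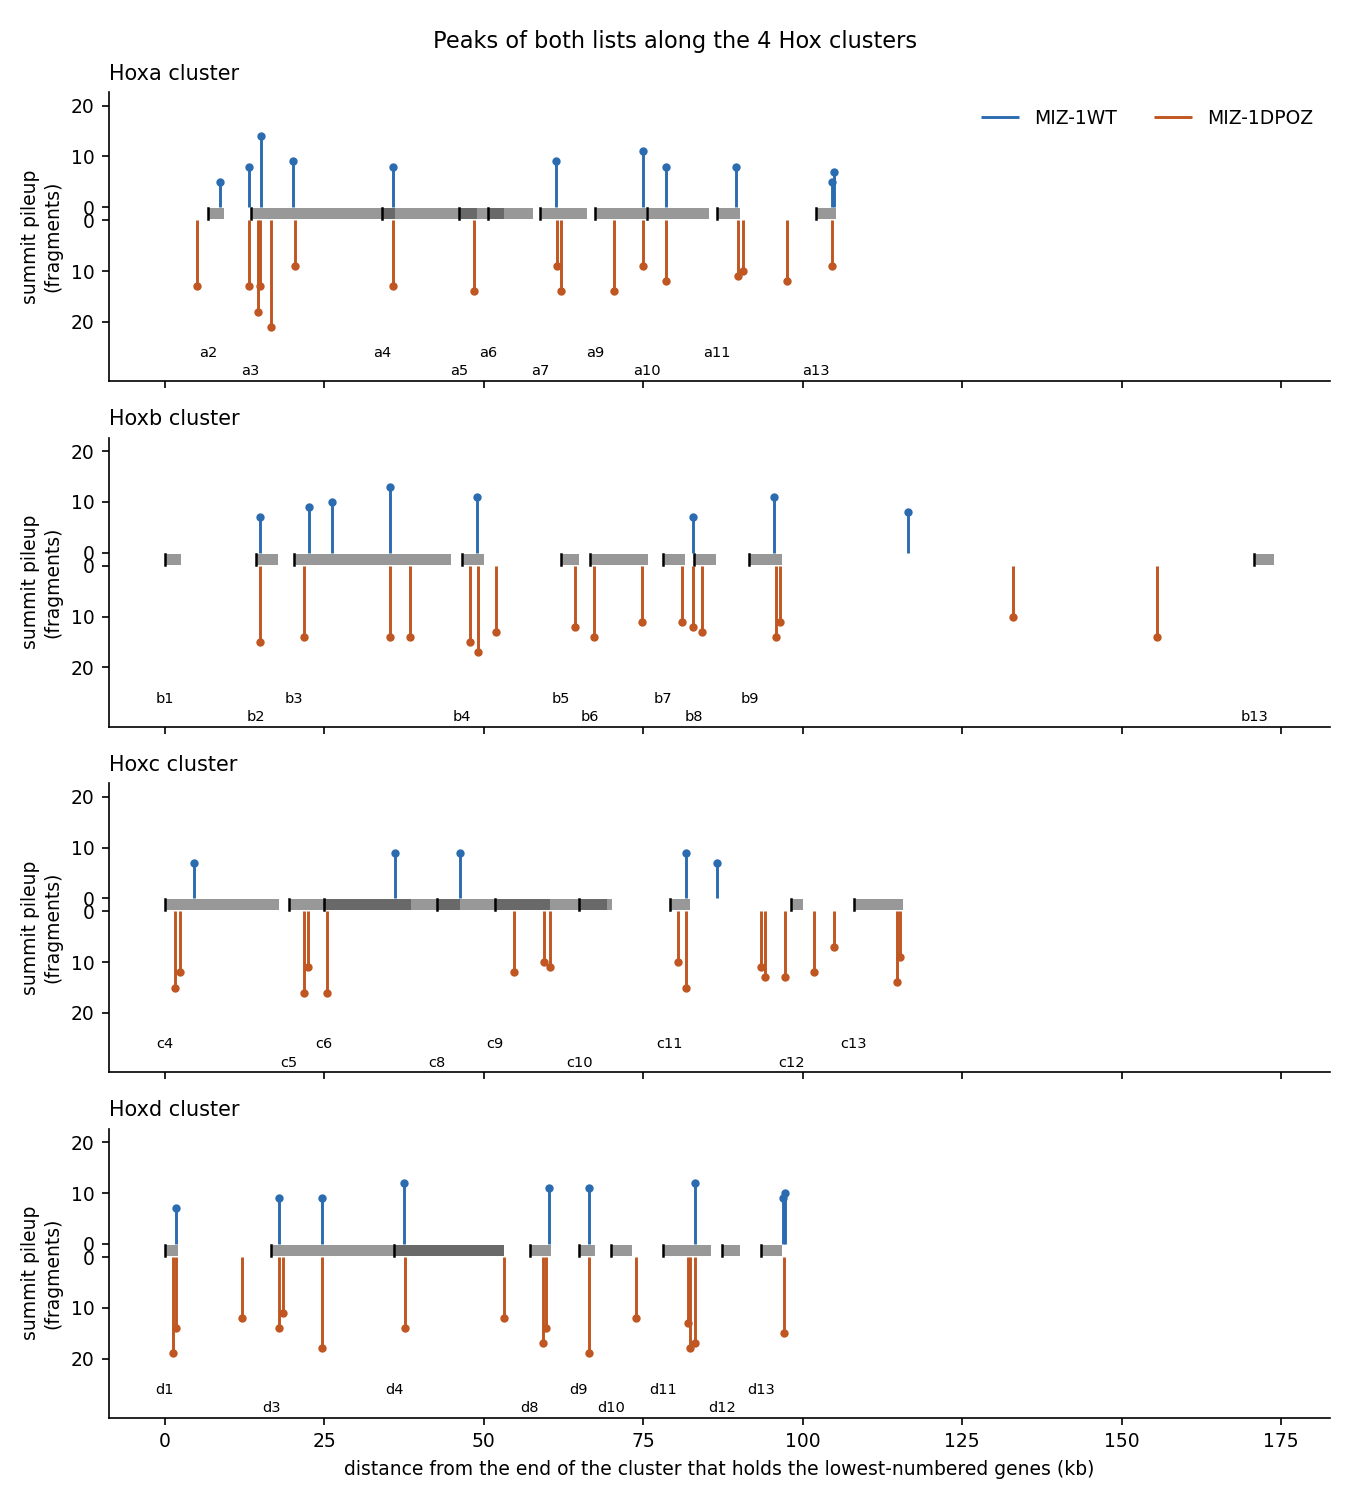
Peaks along the 4 Hox clusters, with the distance in kb from the end that holds the lowest-numbered genes on the horizontal axis and the summit pileup in fragments on the vertical axis, upward for MIZ-1WT and downward for MIZ-1DPOZ. Grey bars are Hox genes (all of the 39 but 1, left out with its promoter peak), darker where they overlap, with a black mark and the name at the 3′ end. The stretch between Hoxb9 and Hoxb13 holds few peaks of either list.

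Other genes share these windows, so that a peak cannot be tied to one of them. Of 7 microRNA genes in the clusters, Mir196b had a promoter peak in both lists, and Mir10a beside Hoxb4 and Mir615 beside Hoxc5 in the MIZ-1DPOZ list. Among long noncoding genes, Hoxaas3, Hoxa11os, Gm28309 and Gm28793 had one in both lists, Gm15050, Hoxd3os1, Gm14424 and Gm14426 in the MIZ-1DPOZ list and Hoxaas2, Gm53 and Gm11536 in the MIZ-1WT list. Of 18 short genes of the class misc_RNA, 6 had one in the MIZ-1WT and 10 in the MIZ-1DPOZ list. These are not separate peaks. Gm28032, Gm27492 and Gm27695 shared the MIZ-1WT peak of Hoxa11os (−log10 q 3.28, 8 fragments), and Gm28011 and Gm27535 shared another. Shares over all microRNA, long noncoding or misc_RNA genes were not computed, so these counts have no background beside them. Of the genes that flank the clusters, Mtx2 and Hibadh had one in both lists and Evx2, a homeobox gene beside Hoxd13, in the MIZ-1DPOZ list (6.53, 13 fragments).

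Genes that act with or upon Hox genes were counted in the same way. Beside them stand the 50.1% and 71.9% of the genes with GC content like that of Hox genes. All other protein-coding genes had 30.8% and 48.6%. No genes were matched to these lists, whose median GC content ran from 52.8% to 54.6%, and no intervals were computed, so whether a list exceeds genes like its own members was not tested. The TALE cofactors, homeodomain proteins that bind DNA together with HOX proteins, had a promoter peak at 5 of 9 genes in the MIZ-1WT list (55.6%) and at 7 (77.8%) in the MIZ-1DPOZ list, with the largest −log10 q at Pknox2 (9.0) and Pbx3 (7.25), both MIZ-1DPOZ values. Polycomb subunits, which keep Hox genes inactive outside their domains, had one at 20 of 30 (66.7%) and 27 of 30 (90%), led by Phc3 and Pcgf1 (13.3 each), Ezh2 (9.88) and Suz12 (8.91), all MIZ-1DPOZ values. A list of MLL complex genes and MLL partners, which maintain Hox expression and among which Dot1l, Mllt1 and Mllt3 belong to separate complexes, had one at 5 of 13 (38.5%) and 11 of 13 (84.6%), led by Dot1l (9.96, MIZ-1DPOZ only) and Psip1 (7.89), Hcfc2 (7.69) and Kmt2a (7.25, MIZ-1DPOZ only). Of 69 other homeobox genes of development, 32 (46.4%) and 55 (79.7%) had a promoter peak, led by Isl1 (17.4) and Meox2 (12.1) in the MIZ-1DPOZ list, and these genes had a median GC content of 54.6%, beside 53.0% for Hox genes.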

How the data were processed

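ChIP-seq libraries of B220+ splenocytes were sequenced with paired ends. Per the labels, reads were aligned to mm10 with Bowtie2 2.2.6 and peaks called with MACS2 2.1.0, whereas the study's methods name bwa and other versions. The authors called peaks separately for each genotype against its input and deposited, per peak, a fold enrichment (a ratio), the −log10 p-value and the −log10 q-value. The q cutoff and the handling of duplicates are not given in the sources used here, and reads and inputs were not analysed. GRCm38, the same assembly as mm10, and GENCODE M21 gave sequence and genes. A peak was counted for each gene whose window it overlapped by at least 1 bp. Pileups were solved under the formulas of MACS2 for 99.97% and 99.98% of peaks and checked on simulated scores. The members, gene lists and named genes (the 25 with the largest −log10 q) were chosen with earlier results of these data known. With 1 library per genotype no test was made. Python 3.11.15 was used with scipy 1.17.1 and pandas 2.3.3. The smallest deposited −log10 q was 1.03 for MIZ-1WT and 1.01 for MIZ-1DPOZ, and the median pileups of 9 and 12 fragments limit the precision. Protein-coding genes that share a Hox window (3) were left out of the compared genes. The values of 1 Hox gene are not reported here, though it is in all counts.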

Additional observations from a re-analysis of the deposited data

How the results depend on the processing

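No paired analysis was possible because there was a single ChIP library for either genotype. Of 60 values recomputed under another setting, 31 stayed within the limits set for a change, 29 moved and none changed sign, but the order of the lists turned with equal numbers of peaks. With a −log10 q of 5 or more, promoter peaks were at 4 Hox genes (MIZ-1WT), 17 (MIZ-1DPOZ) and 4 (both lists), and at 14.3%, 48.7% and 10.6% of the genes of like GC content, and the clusters held 7 and 35 peaks. With equal numbers of peaks, 14 Hox genes had a MIZ-1DPOZ promoter peak, the genes of like GC content had one in 37.8% (MIZ-1DPOZ) and 26.8% (both lists), and the clusters held 27 MIZ-1DPOZ peaks. Within 500 bp to each side of a start, 10 Hox genes had a MIZ-1WT peak, 19 a MIZ-1DPOZ peak and 8 a peak in both lists, all lower shares than in genes of like GC content. They were close to the 27.5%, 44.0% and 23.7% of all other protein-coding genes. The share of compared genes with a peak was 44.9% (MIZ-1WT) and 39.4% (both lists) with the 20 nearest genes, 27.1%, 46.9% and 23.5% with genes alike in the 500 bp around the start, and 53.5%, 75.5% and 48.3% with genes of like CpG density, in the order MIZ-1WT, MIZ-1DPOZ and both lists. Bins of like GC content had 7.33 and 15.6 peaks per 100 kb at 500 bp, beside 6.48 and 13.3 in the clusters. Where under 25% was repeat-masked, they had 5.92 (MIZ-1WT) and 12.1 (MIZ-1DPOZ), beside 7.28 and 15.3 in the clusters. Choosing genes by the GC content of each part of the window, an alternative added after seeing the data, gave 24.7% and 38.6% downstream and 19.6% and 32.4% around the start. The cause of these changes was not tested. Few fragments per peak, 1 library per genotype and unequal depth limit all counts.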
